A study of Mus musculus with 48 samples.

Results

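The first 30 min after actinomycin D were examined in mouse embryonic fibroblasts that carry the gene for tristetraprolin (TTP). The comparison sets 5 arrays of WT cells at 30 min of actinomycin D against 5 arrays of WT cells at 0 min, paired by the number of the experiment, which is 10 of the 48 arrays of the series. All 45037 probe sets that are not controls were compared. WT is a fibroblast line with the TTP gene Zfp36 intact, made from E14.5 embryos without head and organs, whose parents were TTP +/- mice of strain 129/B6. KO, used here only where the lines are set side by side, is a line without TTP from littermates. The labels do not say that either genotype was represented by more than 1 line. At 0 min the cells of both lines had been held in 0.5% serum for 16 h and then given 10% serum for 90 min. At 30 min they had in addition been in actinomycin D for 30 min, and further arrays were taken at 60, 90 and 120 min. For actinomycin D the sample names state 0.5 µg/ml and the series text 5 µg/ml, and it is not known which of these applied. The 5 experiments were run on different days and each sample combined 3 dishes, so the p-values measure the spread between experiments and not between animals. KO has no array at 0 min in experiment 5, and its change over 30 min rests on 4 pairs.

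Actinomycin D inserts into DNA and stops RNA polymerases, so that after it is added the level of a transcript follows mainly its own decay. Serum given to resting fibroblasts switches on immediate-early genes, many of which carry AU-rich elements in their messenger RNA and are degraded quickly. TTP binds such elements and recruits the enzymes that shorten the poly(A) tail.

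The values are log2 signals as deposited, on which a probe set without transcript still reads about 8. The 5th percentile of the arrays lay between 8.03 and 8.11 at 30 min and between 8.02 and 8.08 at 0 min, and the medians lay between 8.49 and 8.55 at 30 min and between 8.48 and 8.56 at 0 min. Of the 11 fibroblast markers, 9 lay above the upper quartile of the arrays at both times, with Vim at 13.27 at 30 min and 13.25 at 0 min, while Thy1 (8.14 and 8.11) and Lum (8.37 and 8.38) were near the floor. The summed linear signal of the fibroblast list was 37540 to 40931 at 30 min and 38599 to 40228 at 0 min. None of the 6 epithelial, 5 endothelial, 6 macrophage and blood and 5 neural markers lay above the upper quartile. Of 6 muscle markers 2 did at 30 min and 1 at 0 min, with Actc1 at 9.09 and 9.02 and Tnnt2 at 9.08 and 8.97, and of 4 cartilage and bone markers Sox9 did, at 10.04 and 10.16. The 3′ minus 5′ difference of the Actb control probe sets was 0.35 to 0.46 at 30 min and 0.31 to 0.60 at 0 min. In a bulk sample, fewer cells of a type and less RNA per cell cannot be told apart.

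Among the 10 arrays there were 2 irregularities that bear on the pairs. The Dap probe sets, which detect a poly-A control RNA, read 8.54 to 8.61 on 3 arrays and 9.24 to 10.67 on the other 7. The 3 without this signal were the 30 min arrays of experiments 1 and 2 and the 0 min array of experiment 3, so that only in experiments 4 and 5 were both arrays of a pair alike. The nuclear noncoding RNA Malat1 ran opposite to that signal in experiments 1 to 3 and did not pass (limma adjusted p = 0.918), with changes of 2.11, 1.46, -1.62, 0.04 and -0.27 in experiments 1 to 5. It read 11.08 to 11.71 on the 3 arrays without the signal, 9.61 to 9.68 on the other arrays of experiments 1 to 3, and 11.30 to 11.82 on the arrays of experiments 4 and 5, which had the signal. By their deviations from the group means, the 0 min arrays of experiments 4 and 5 best matched their own partner at 30 min. Those of experiments 1, 2 and 3 best matched the 30 min arrays of experiments 3, 3 and 1. The second irregularity is the 30 min array of experiment 2, on which many short-lived transcripts stood higher than on the other 4. Of the 20 genes with the largest falls, 16 fell least in experiment 2. Values with a term for the control signal, from experiments 4 and 5 alone or without experiment 2 are therefore given beside the results they touch.

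In all, 491 probe sets fell within 30 min (1.09% of those tested) and 29 rose (0.0644%), by limma's moderated test with the experiment as a block and a Benjamini-Hochberg adjusted p threshold of 0.05 over all probe sets. Changes are 30 min minus 0 min on the log2 scale throughout, and their median over all probe sets was 0.0062. At an unadjusted p under 0.05, 2359 probe sets were lower and 1863 higher. All 491 were lower in 5 of 5 pairs, and for 269 of them the 5 values at 30 min lay wholly below the 5 at 0 min, a separation shown by 0.953% of all probe sets. Counted once per gene by its brightest probe set, 239 of 18193 genes fell (1.31%) and 2 rose (0.011%). All 491 and all 29 were also called with the control signal as a term, when the totals were 917 (2.04%) and 90 (0.2%). All 29 were higher in 5 of 5 pairs, so the direction in experiments 4 and 5 follows for all calls and is no further check. The count that fell was 293 without experiment 1, 182 without experiment 4 and 296 without experiment 5, and 2 rose in each of these; without experiment 2, 501 fell. In each of the 5 fits that leave out an experiment, 177 of the 491 passed.

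The falls were mostly small. Their median was -0.28, and 58 probe sets (0.129%) fell by at least 1.5-fold, of which 17 reached 2-fold, while 0 of all probe sets were higher by 1.5-fold at any p. The share that fell grew with the level at 0 min up to 11, being 0.156% of probe sets at or below 8.5, 1.26% from 8.5 to 9, 2.69% from 9 to 10, 3.12% from 10 to 11, 3.03% from 11 to 12 and 3.41% above 12. The fallen probe sets had a median level of 9.2 at 0 min, against 8.5 over all probe sets. For 8 of the 491 the mean at 30 min was at or under 8.11, the highest 5th percentile of the arrays, which serves here as the floor.

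**Figure D1:**
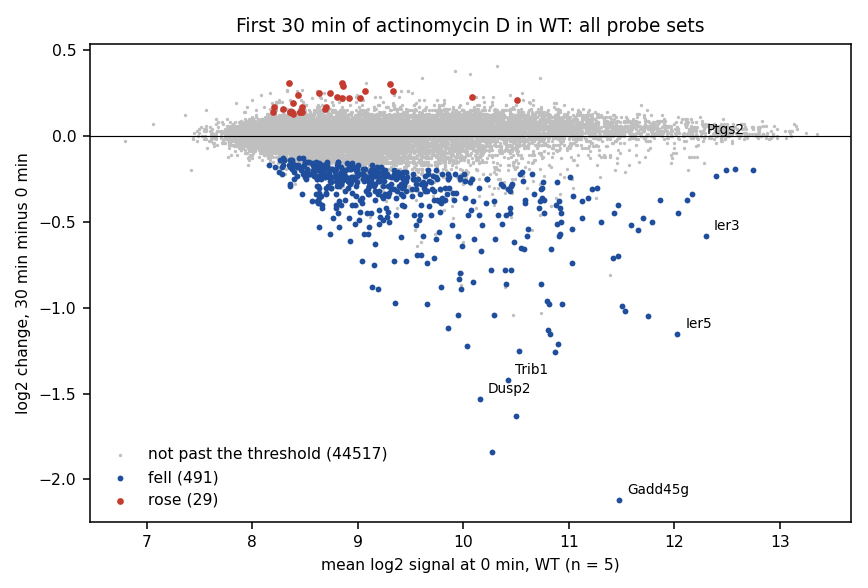
Log2 change from 0 to 30 min of actinomycin D (vertical axis) against the mean log2 signal at 0 min (horizontal axis) for the probe sets of the 10 WT arrays, with those that fell and rose in colour. Gadd45g lies lowest at -2.12, and the fallen probe sets spread over the whole range of levels.

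Gadd45g, a stress sensor that binds proliferation and kinase proteins, fell most. Its log2 signals in experiments 1 to 5 were 9.45, 9.50, 9.45, 9.23 and 9.21 at 30 min, against 11.47, 11.52, 11.75, 11.36 and 11.32 at 0 min. The groups lay far apart with no overlap, and experiment 2 was no exception (-2.12 ± 0.049, SE; limma adjusted p = 9.82e-09). The remaining signal was 23.1% of that at 0 min, which is 4.33-fold lower, or 6.59-fold lower after subtraction of background. Taken as an exponential fall this is a halving time of 14.2 min, or 11 min after background subtraction. The WT means at 60, 90 and 120 min were 9.17, 9.12 and 9.09, above the 5th percentile taken off as background. If part of the signal of Gadd45g does not decay, both times are too long, which was not tested. Its relative Gadd45b read 9.86, 9.89, 9.70, 9.41 and 9.59 at 30 min, against 10.92, 10.84, 11.26, 10.72 and 10.77 at 0 min (-1.21 ± 0.078, SE; limma adjusted p = 8.33e-05).

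Dusp2, a nuclear phosphatase of MAP kinases, came next. It read 8.74, 8.82, 8.66, 8.48 and 8.42 at 30 min, against 10.38, 10.11, 10.70, 9.80 and 9.81 at 0 min (-1.53 ± 0.11, SE; limma adjusted p = 0.00205). Its values at 30 min were close to the floor, and after background subtraction the fall was 6.95-fold rather than 2.9-fold. Trib1, a pseudokinase that steers proteins to degradation, read 9.01, 9.27, 9.08, 8.87 and 8.80 at 30 min, against 10.37, 10.45, 10.43, 10.34 and 10.53 at 0 min, without overlap (-1.42 ± 0.069, SE; limma adjusted p = 6.9e-06).

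Dusp6, the cytoplasmic phosphatase of ERK, read 9.38, 10.14, 9.66, 9.41 and 9.48 at 30 min, against 10.96, 11.26, 10.69, 10.86 and 10.60 at 0 min (-1.26 ± 0.08, SE; limma adjusted p = 8.46e-05). Experiment 2 held its highest value both at 30 min and at 0 min. Ier2, a nuclear immediate-early protein, read 9.12, 9.86, 9.30, 9.16 and 8.94 at 30 min, against 10.51, 10.98, 10.45, 10.42 and 10.28 at 0 min (-1.25 ± 0.05, SE; limma adjusted p = 1.68e-06). Dusp1, the phosphatase that shuts off stress-activated MAP kinases, read 8.93, 8.94, 8.69, 8.67 and 8.85 at 30 min, against 10.15, 9.90, 9.90, 10.03 and 10.21 at 0 min. Its groups did not overlap (-1.22 ± 0.058, SE; limma adjusted p = 2.96e-06).

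The promoters of the 3 genes with the largest falls that have an entry in the RefSeq promoter table are shown as a description. The entries, in assembly GRCm38.p6, span 250 bases before and 50 bases after the start of the gene. They are chr13:51846425-51846724 for Gadd45g, chr2:127335909-127336208 for Dusp2 and chr10:99262981-99263280 for Dusp6, all on the plus strand and printed 5′ to 3′. Capitals mark matches on either strand to TATAAA, the cyclic AMP element TGACGTCA, the CCAAT box or the CArG box of serum response factor.
Gadd45g: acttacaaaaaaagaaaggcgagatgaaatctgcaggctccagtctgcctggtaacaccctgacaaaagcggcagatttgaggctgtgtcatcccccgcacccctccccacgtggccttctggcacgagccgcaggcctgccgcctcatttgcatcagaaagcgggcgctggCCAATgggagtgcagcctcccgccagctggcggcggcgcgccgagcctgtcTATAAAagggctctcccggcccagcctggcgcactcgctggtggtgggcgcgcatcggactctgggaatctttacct
Dusp2: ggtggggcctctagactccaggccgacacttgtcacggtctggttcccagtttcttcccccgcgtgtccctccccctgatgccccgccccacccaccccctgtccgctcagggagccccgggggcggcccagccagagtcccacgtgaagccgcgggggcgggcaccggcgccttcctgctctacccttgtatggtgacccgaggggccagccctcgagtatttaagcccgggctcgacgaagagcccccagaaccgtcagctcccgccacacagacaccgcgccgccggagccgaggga
Dusp6: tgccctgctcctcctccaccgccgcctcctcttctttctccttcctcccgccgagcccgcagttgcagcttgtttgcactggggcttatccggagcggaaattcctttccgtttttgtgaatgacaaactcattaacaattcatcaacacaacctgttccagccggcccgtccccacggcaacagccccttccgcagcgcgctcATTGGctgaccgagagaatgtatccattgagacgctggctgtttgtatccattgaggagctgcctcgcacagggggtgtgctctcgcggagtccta

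Gadd45g holds TATAAA at -27 and CCAAT at -78, counted from the start of the gene, Dusp6 holds CCAAT on the minus strand at -46, and the window of Dusp2 holds none of these letters. Of the 239 genes that fell, 191 have entries, 235 in all. TATAAA was in 9.36% of these, against 7.8% for genes with a level above 8.5 at 0 min and 13.6% of all promoters in the table. TGACGTCA was in 13 entries (5.53%), against 2.92% and 1.79%. CCAAT was in 40%, against 37.9% and 37.4%, and the CArG box in 10 entries (4.26%), against 1.44% and 1.63%. A match describes the letters only, and whether it bears on the fall was not tested.

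The other genes among the 20 with the largest falls were Ier5 (-1.15), Myc (-1.13), Zfp36 (-1.12), Dusp5 (-1.05), Nr4a1 (-1.02), Socs3 (-0.98), Jun (-0.98), Fos (-0.98), Rpl12 (-0.89), Tnfaip3 (-0.89), Nuak2 (-0.88), Nfil3 (-0.86) and Smad7 (-0.85). The next in order were Snai1 (-0.83), a repressor of cadherin, and Arc (-0.80). For each of the 20, all values at 30 min lay below all values at 0 min. The calls of 18 of the 20 held in each of the 16 other settings tried. The exceptions were Nr4a1, which missed without experiment 1 (limma adjusted p = 0.113), 3 (0.0695), 4 (0.074) or 5 (0.113), in experiments 1 to 3 alone (0.0519) and after background subtraction (0.0557), and Dusp5, which missed without experiment 1 or 4 (0.0646 each).

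**Figure D2:**
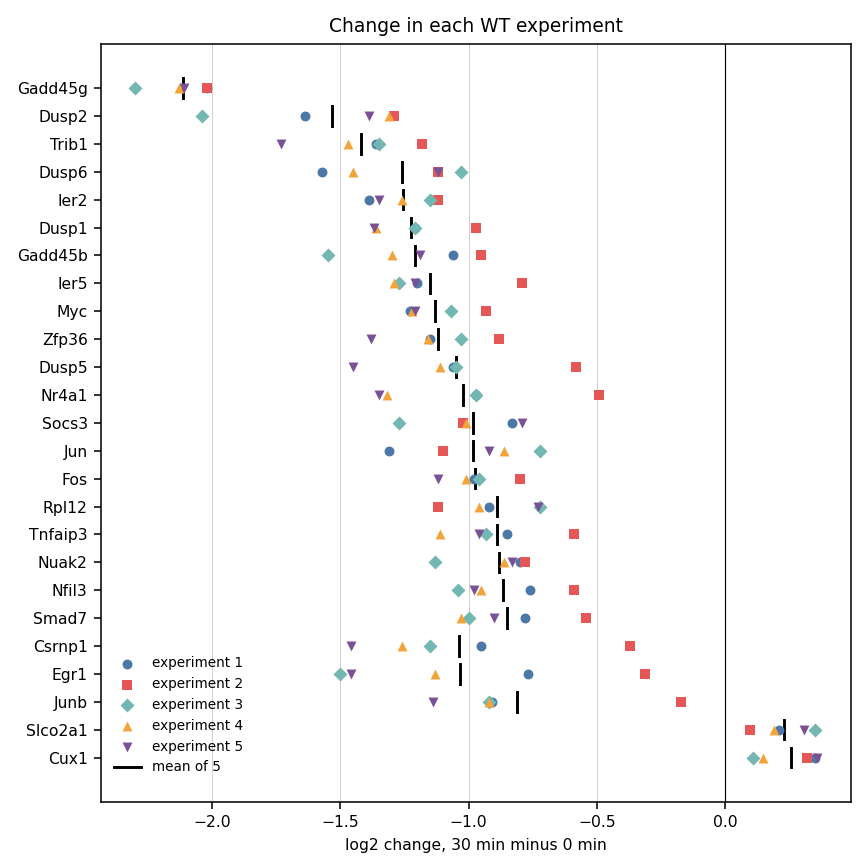
Log2 change (30 min minus 0 min, horizontal axis) in each of the 5 WT experiments for the 20 genes with the largest falls, for Csrnp1, Egr1 and Junb, and for the 2 genes that rose. Symbols are experiments and bars are means; experiment 2 lies nearest to 0 for 16 of the 20, and Gadd45g lies between -2.30 and -2.02 in every experiment.

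Zfp36 itself, the gene of TTP, was among the transcripts that fell at once. It read 8.68, 9.26, 8.80, 8.52 and 8.46 at 30 min, against 9.84, 10.13, 9.83, 9.69 and 9.83 at 0 min, with no overlap. The change was -1.12 ± 0.062 (SE; limma adjusted p = 1.56e-05), or -1.18 without experiment 2 and -1.27 in experiments 4 and 5. The relatives Zfp36l1 and Zfp36l2, which bind the same kind of element, had higher signals and did not pass. Zfp36l1 averaged 11.40 at 30 min and 11.44 at 0 min (adjusted p = 0.878), and Zfp36l2 averaged 11.39 at 30 min and 11.49 at 0 min (0.477).

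The gene groups below were chosen with earlier results of these data known. Their counts are descriptions, to be read against the 1.31% of all genes that fell and the median change of 0.0082 over all genes. The 48 lists, markers included, hold 1432 measured genes, of which 101 fell and 0 rose by limma's adjusted p (79 were higher at an unadjusted p under 0.05), and 138 fallen genes lie outside them. Many of these calls depend on single experiments. Of the 101 genes 46 passed in each of the 5 fits that leave out 1 experiment, and these are the 46 that passed without experiment 4. All 101 were lower at an unadjusted p under 0.05 in each of these fits. Ddit3, Mdm2, Rgs16, Snhg3, Zfp212 and Zfp87 passed in 0 of the 5. Ccn2, Cdkn1b, Dcp1a, Egr3, Irx5, Klf10, Klf2, Mafk, Mcl1, Nr4a1, Pdgfra, Rel, Sgk1, Smad6 and Zfp248 passed in 1 of the 5. For each list the counts that moved by more than 1.5 times are given with the experiment left out.

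Of the AP-1 factors, which pair Fos and Jun proteins, 4 of 12 fell (33.3%, median change -0.16). Fos read 8.54, 9.12, 8.64, 8.44 and 8.69 at 30 min, against 9.52, 9.92, 9.61, 9.45 and 9.81 at 0 min (-0.98 ± 0.047, SE; limma adjusted p = 2.96e-06). Jun, its usual partner, changed by -0.98 (adjusted p = 0.000249), Fosl2 by -0.50 (0.00114) and the small Maf protein Mafk by -0.22 (0.0379). Junb and Fosl1 did not pass, with -0.81 (0.0917) and -0.084 (0.553).

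Junb, Egr1 and Csrnp1 had large mean changes and missed the threshold. Junb read 10.48, 11.39, 10.58, 10.23 and 10.20 at 30 min, against 11.39, 11.56, 11.50, 11.15 and 11.35 at 0 min. Only its 30 min value of experiment 2 reached into the range at 0 min. Its adjusted p was 0.18 to 0.335 without any one of the other experiments and 0.0671 with the control signal as a term. Egr1, the zinc finger factor induced within minutes of serum, changed by -0.77, -0.31, -1.5, -1.13 and -1.46 in experiments 1 to 5. Its mean was -1.03 (limma adjusted p = 0.149, or 0.192 to 0.454 without experiment 1, 3, 4 or 5), and with the control signal as a term it was -1.14 (0.00122). Csrnp1, a nuclear protein induced by Axin, changed by -0.95, -0.37, -1.15, -1.26 and -1.46. Its mean was -1.04 (limma adjusted p = 0.066, or 0.142 to 0.231 without experiment 1, 3, 4 or 5), and with the control signal as a term it was -1.10 (0.0257). Without experiment 2 the changes were -0.97 for Junb, -1.21 for Egr1 and -1.21 for Csrnp1, and all 3 passed. That fit leaves out the smallest fall of each, so its passing is no separate support for a fall. With all 5 experiments kept, Junb, Egr1 and Csrnp1 passed when probe sets of low signal were left out (limma adjusted p = 0.0312, 0.0375 and 0.0192). They also passed in the fit of all 25 WT arrays (0.000646, 2.1e-05 and 2.93e-07). Of the 16 other settings tried, Junb and Egr1 each passed in 8 and Csrnp1 in 10.

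Of the Egr factors and their partners 3 of 7 fell (42.9%, median change -0.37), namely Egr2 (-0.66, adjusted p = 9.28e-05), the co-repressor Nab2 (-0.38, 0.00103) and Egr3 (-0.37, 0.0381). Srf, the serum response factor, averaged 10.87 at 30 min and 10.86 at 0 min (adjusted p = 0.98). Of the orphan nuclear receptors of the Nr4a group 3 of 3 fell (100%, median change -0.34, count 0 without experiment 4 and 1 without 1), Nr4a2 by 0.34 on the log2 scale (adjusted p = 0.0104) and Nr4a3 by 0.28 (0.00526). Nr4a1 read 10.62, 11.04, 10.85, 9.89 and 10.13 at 30 min, against 11.59, 11.54, 11.82, 11.21 and 11.47 at 0 min, and its SD at 30 min of 0.48 was the widest among the 20 leading genes (-1.02 ± 0.13, SE; limma adjusted p = 0.0257).

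Among Kruppel-like factors 5 of 11 fell (45.5%, median change -0.23, count 1 without experiment 4 and 2 without 3 and 3 without 1 or 5), with Klf10, a repressor induced by TGF-beta, in front (-0.74, adjusted p = 0.0469). The Klf10 call ended without experiment 1 (0.195), 3 (0.114), 4 (0.11) or 5 (0.28) and after background subtraction (0.0981). Klf9 (-0.39), Klf6 (-0.36), Klf3 (-0.26) and Klf2 (-0.23) followed, and Klf4 (-0.17, adjusted p = 0.744) and Klf5 (0.026, 0.91) did not pass. Klf4 passed in 3 of the 16 other settings, among them the control signal as a term (-0.24, limma adjusted p = 0.0215). Of the small immediate-early genes around Ier and Csrnp 7 of 8 fell (87.5%, median change -0.69), Csrnp1 being the one that missed. Ier5 read 10.74, 11.35, 10.80, 10.73 and 10.76 at 30 min, against 11.94, 12.14, 12.07, 12.02 and 11.97 at 0 min (-1.15 ± 0.069, SE; limma adjusted p = 6.3e-05), with experiment 2 well above the rest at 30 min. Ier3, a survival gene and reported target of TTP, fell less, with 11.87, 11.88, 11.85, 11.39 and 11.62 at 30 min, against 12.30, 12.26, 12.40, 12.26 and 12.28 at 0 min (-0.58 ± 0.064, SE; limma adjusted p = 0.0028).

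Myc, the growth regulator, read 9.49, 10.17, 9.63, 9.57 and 9.47 at 30 min, against 10.71, 11.11, 10.69, 10.79 and 10.68 at 0 min (-1.13 ± 0.052, SE; limma adjusted p = 2.96e-06). Of the 9 genes of its network Mnt, a repressor that competes for the same partner, also fell (-0.29, adjusted p = 0.00763, or 0.0939 without experiment 4), and the related Mxd4 (-0.053, 0.803) and Mxi1 (-0.048, 0.793) did not pass. Among Id and Hes repressors and Smad feedback genes 6 of 13 fell (46.2%, median change -0.20, count 3 without experiment 4). These were Smad7 (-0.85), the inhibitor of TGF-beta receptors, and Bhlhe40 (-0.78), Id1 (-0.58), Id3 (-0.57), Tgif1 (-0.42) and Smad6 (-0.15). Of the C/EBP family 2 of 5 fell (40%, median change -0.22, count 0 without experiment 1, 3 or 4 and 1 without 2 or 5), Cebpb (-0.37, adjusted p = 0.0154) and Ddit3 (-0.22, 0.0469). Of the Zfp zinc finger genes 19 of 305 fell (6.23%, median change -0.02, count 8 without experiment 4 and 11 without 5 and 12 without 1), led after Zfp36 by Zfp655 (-0.67), Zfp574 (-0.53) and Zfp644 (-0.45).

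Of the MAP kinase phosphatases 5 of 10 fell (50%, median change -0.33, count 3 without experiment 4), the 4 named above and Dusp4 (-0.33, adjusted p = 0.00764), while Dusp14, at 9.96 at 30 min and 9.96 at 0 min, did not pass (0.995). Dusp5, the nuclear phosphatase of ERK, read 10.64, 11.22, 10.68, 10.60 and 10.38 at 30 min, against 11.70, 11.80, 11.72, 11.71 and 11.84 at 0 min (-1.05 ± 0.11, SE; limma adjusted p = 0.0116). Of the receptor feedback genes 6 of 20 fell (30%, median change -0.08, count 1 without experiment 4 and 3 without 5), led by Socs3, which blocks JAK kinases (-0.98 ± 0.065, SE; limma adjusted p = 4.33e-05). Pim3 (-0.62), Cish (-0.31), Socs1 (-0.27), Errfi1 (-0.20) and Rgs16 (-0.19) also fell, while Spry2 (-0.23, adjusted p = 0.345) and Socs5 (-0.041, 0.848) did not pass.

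Of the NF-kappaB inhibitors and subunits 4 of 12 fell (33.3%, median change -0.08). Tnfaip3, a ubiquitin-editing inhibitor, read 9.10, 9.22, 8.90, 9.13 and 9.11 at 30 min, against 9.95, 9.80, 9.83, 10.24 and 10.07 at 0 min (-0.89 ± 0.065, SE; limma adjusted p = 8.48e-05). Nfkbia, which holds NF-kappaB in the cytoplasm, changed by -0.52 (adjusted p = 0.00116), Nfkbiz by -0.45 (0.00256) and Rel by -0.28 (0.024), whereas Rela averaged 10.18 at 30 min and 10.22 at 0 min (0.84). Of the Polo-like, Sgk and related kinases 5 of 9 fell (55.6%, median change -0.21, count 3 without experiment 4), Trib1, Nuak2, Plk2 (-0.45), Plk3 (-0.31) and Sgk1 (-0.19).

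Of the genes of growth arrest and p53 7 of 19 fell (36.8%, median change -0.16, count 3 without experiment 4). After Gadd45g and Gadd45b these were the antiproliferative Btg2 (-0.58, adjusted p = 0.0029), Trp53inp1 (-0.44), Tob1 (-0.38) and Phlda1 (-0.34), and Mdm2 (-0.20), which degrades p53. Ccng1 did not pass (0.11, adjusted p = 0.554). Among survival genes 2 of 10 fell (20%, median change -0.11, count 0 without experiment 4 and 1 without 1, 3 or 5), Mcl1, which protects mitochondria (-0.31, adjusted p = 0.0192), and the pro-death Bcl2l11 (-0.26, 0.0043). Of the Notch and Wnt regulators 4 of 15 fell (26.7%, median change -0.13, count 2 without experiment 1 or 4), Irx3 (-0.46), Rhob (-0.30), Dact1 (-0.24) and Irx5 (-0.21). Among circadian clock genes 1 of 13 fell (7.69%, median change -0.03, count 0 without experiment 4), Per1 (-0.29), and among D-type cyclins and their kinases and inhibitors 1 of 10 fell (10%, median change 0, count 0 without experiment 1, 3, 4 or 5), Cdkn1b (-0.22), a cell cycle inhibitor.

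Of the cytokines and chemokines 1 of 20 fell (5%, median change -0.01, count 0 without experiment 1 or 4 and 2 without 2), Lif, a cytokine that keeps stem cells undifferentiated, with 10.33, 10.54, 10.56, 9.83 and 10.38 at 30 min, against 10.79, 10.69, 11.04, 10.19 and 10.65 at 0 min. Each pair declined while the groups overlapped (-0.34 ± 0.054, SE; limma adjusted p = 0.01). Of the growth factors 1 of 22 fell (4.55%, median change -0.02, count 2 without experiment 2), Bmp4, a bone morphogenetic protein, with 9.33, 9.34, 9.69, 9.20 and 9.19 at 30 min, against 10.14, 10.08, 9.99, 9.94 and 9.78 at 0 min (-0.64 ± 0.069, SE; limma adjusted p = 0.00136). Cxcl1, a neutrophil chemokine, averaged 12.10 at 30 min and 12.22 at 0 min (adjusted p = 0.43), and Hbegf, a ligand of the EGF receptor, 12.12 and 12.28 (0.506). Of the 16 other settings, Cxcl1 passed in 3 and Hbegf in 4. For Hbegf these include the control signal as a term (-0.2, limma adjusted p = 0.0131). The highest signals on the arrays lay between 13.33 and 13.39 at 30 min and between 13.30 and 13.39 at 0 min. Of the matricellular and plasminogen system genes 2 of 16 fell (12.5%, median change 0, count 1 without experiment 1, 3, 4 or 5), Ccn1 (-0.45) and Ccn2 (-0.20).

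Of the transcripts reported elsewhere as TTP targets 6 of 22 fell (27.3%, median change -0.12), Dusp1, Myc, Nr4a1, Fos, Ier3 and Lif. Ptgs2, the inducible cyclooxygenase, is in that list and did not pass. It read 12.29, 12.17, 12.18, 12.05 and 12.34 at 30 min, against 12.24, 12.13, 12.30, 12.18 and 12.30 at 0 min, with overlapping groups (-0.023 ± 0.039, SE; limma adjusted p = 0.906).

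No member fell by limma's adjusted p among 81 oxidative phosphorylation subunits (median change 0.07), 76 mitochondrial ribosomal proteins (0.06), 39 proteasome subunits (0.07), 32 tRNA synthetases (0.03), 33 Hox genes (0.00), 21 genes of matrix and stroma (0.02), 18 cytoskeletal genes (0.02), 21 of DNA replication and mitosis (0.02), 15 of cholesterol synthesis (-0.01) and 11 of glycolysis (0.04). At an unadjusted p under 0.05, 5 of these 347 genes were lower and 52 higher. Of the 15 lists with a median above 0, 14 had one at or below 0 with scaling to ribosomal protein probe sets. Among solute carriers 1 of 334 fell (0.299%, median change 0.01, count 0 without experiment 4), the amino acid transporter Slc38a2 (-0.38, adjusted p = 0.00416), and among mRNA decay factors 1 of 37 fell (2.7%, median change 0.01, count 0 without experiment 1, 3, 4 or 5), the decapping partner Dcp1a (-0.20, 0.0226). Of the splicing factors 1 of 19 fell (5.26%, median change 0.02), Clk1, a kinase of splicing proteins (-0.78, adjusted p = 1.56e-05). Of the cytosolic ribosomal proteins 1 of 49 fell (2.04%, median change 0.03), a probe set annotated as Rpl12 that averaged 8.30 at 30 min and 9.19 at 0 min, where the median level of the list was 12.29 at 0 min.

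**Figure D3:**
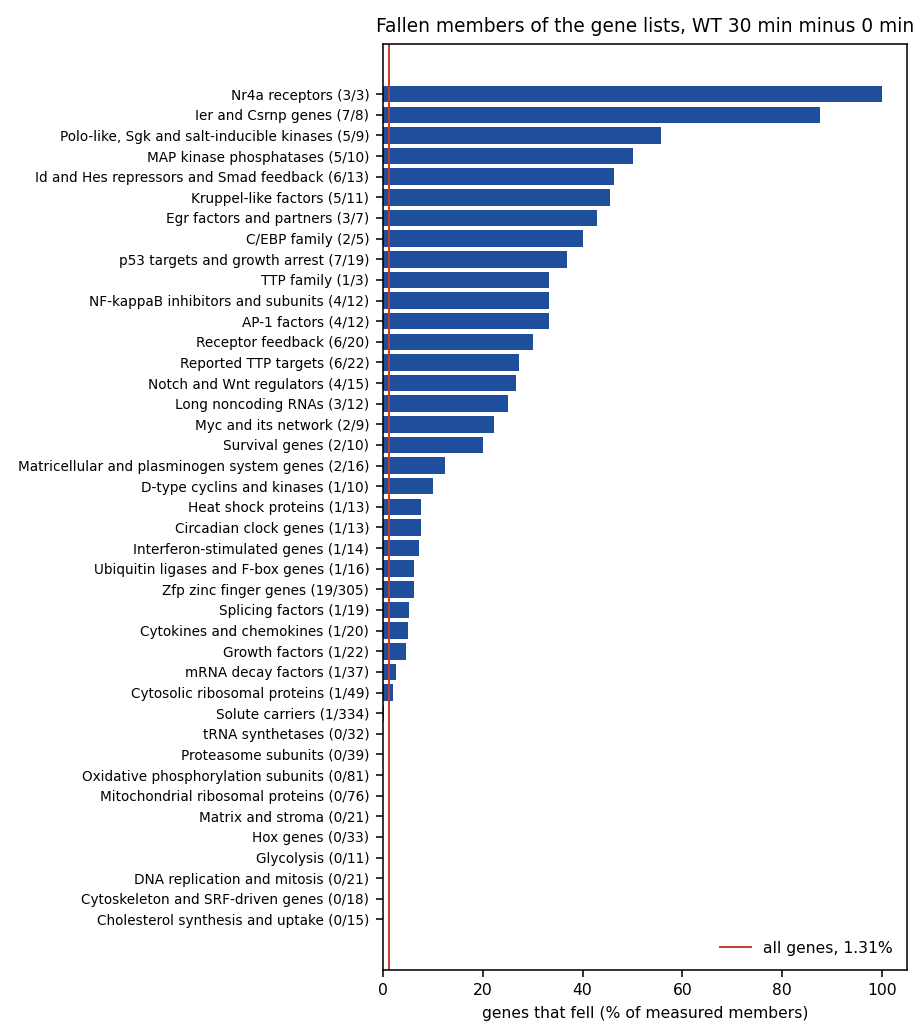
Share of the measured members of each gene list that fell in WT from 0 to 30 min of actinomycin D (horizontal axis, percent, with fallen and measured members in brackets). The red line marks the 1.31% of all genes; Nr4a receptors and Ier and Csrnp genes stand at the top, where the count of the Nr4a receptors was 0 without experiment 4, and 10 lists stand at 0.

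Different probe sets gave different answers for some genes. Of 9010 genes with more than 1 probe set, 240 had a fallen probe set and 22 had all of them fallen. Ccn1, a secreted matricellular protein, changed by -0.45 at its brightest probe set, with 11.59 at 30 min and 12.04 at 0 min. Another probe set of Ccn1 read 8.43, 8.40, 8.56, 8.32 and 8.46 at 30 min, against 9.88, 10.06, 10.22, 10.45 and 10.73 at 0 min. Its change of -1.84 (limma adjusted p = 0.00271) was second in size only to that of Gadd45g among all probe sets. A further probe set of Ccn1 changed by -1.63.

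Itga5, a subunit of the fibronectin receptor, did not pass at its brightest probe set (-0.0088, adjusted p = 0.985). Another probe set of Itga5 read 9.0, 8.98, 8.86, 8.82 and 8.91 at 30 min, against 9.96, 9.83, 10.10, 9.97 and 9.90 at 0 min (-1.04, limma adjusted p = 6.9e-06), and a further one changed by -0.73 (0.000105). Hnrnpdl, an RNA-binding protein, showed -0.71 at a second probe set and -0.063 at its brightest probe set. The same held for Taf1d (-0.69 at the second and -0.044) and for Noc2l (-0.61 and 0.13). The positions of these probe sets in their transcripts were not used here. The probe sets of Nfkbia moved together, with -0.99, -0.96 and -0.66 at 3 of them and -0.52 at the brightest.

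Rises were few and small. Slco2a1, the prostaglandin transporter, read 10.47, 10.01, 10.18, 10.53 and 10.38 at 30 min, against 10.26, 9.91, 9.84, 10.34 and 10.06 at 0 min. It was higher in 5 of 5 pairs with overlapping groups (0.23 ± 0.047, SE; limma adjusted p = 0.0435). Cux1, a homeodomain factor, averaged 9.33 at 30 min and 9.07 at 0 min (0.26 ± 0.047, SE; limma adjusted p = 0.0251). Both calls ended without experiment 1 (adjusted p = 0.155 for Slco2a1 and 0.136 for Cux1), 4 (0.246 and 0.101) or 5 (0.165 and 0.11), that of Slco2a1 also without experiment 3 (0.127) and that of Cux1 without experiment 2 (0.0641). Among the 29 probe sets that rose, the largest rise was 0.31, at secondary probe sets of Zmym5 and of the noncoding RNA Pvt1.

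The later times show how much of each fall belonged to the first 30 min. The arrays at 30 min serve both steps, so the values are given side by side. From 30 to 60 min 473 probe sets were lower (1.05%), and from 30 to 120 min 3452 were lower (7.66%) and 1690 higher (3.75%). With scaling to ribosomal protein probe sets the split from 30 to 120 min was 3895 lower and 493 higher. Of the 491, 217 fell again between 30 and 60 min. At 120 min 323 were lower than at 30 min, 167 were not past that threshold, and 1 was higher. The test of the first step against the second called 42 probe sets as falling more in the first (0.0933%), 11 genes by their brightest probe set, and all 42 are among the 491; the count was 19 without experiment 4 and 25 without experiment 5.

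Gadd45g had the largest excess (-1.92, limma adjusted p = 1.89e-12), with WT means of 11.48, 9.37, 9.17, 9.12 and 9.09 at 0, 30, 60, 90 and 120 min. Dusp2 (-1.23), Ier2 (-0.91), Gadd45b (-0.86), Dusp1 (-0.84) and Trib1 (-0.82) followed. The means of Dusp2 were 10.16, 8.63, 8.32, 8.30 and 8.35, and those of Trib1 10.42, 9.0, 8.40, 8.43 and 8.48. Those of Dusp1 were 10.04, 8.81, 8.43, 8.40 and 8.41. These genes were near the floor by 60 min, which limits what the second step can show. Gadd45b levelled off higher, with 9.35, 9.31 and 9.35 at 60, 90 and 120 min, and Ier2 with 8.93, 8.84 and 8.85. Where a signal levels off, the second step has little left to show, which also bounds the excess of Gadd45g, Gadd45b and Ier2.

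For other transcripts only the second step passed, where the first was called on 10 arrays and the second on all 25 WT arrays. Of 18193 genes, 175 had no call from 0 to 30 min and a fall that passed from 30 to 60 min. The 6 with the largest falls in that step were Junb (-0.92), Csrnp1 (-0.78), Dusp10 (-0.77), Rnd3 (-0.68), Prag1 (-0.66) and Spry2 (-0.64). They did not all fall later. In the fit of 25 WT arrays Junb (-0.81, limma adjusted p = 0.000646), Csrnp1 (-1.04, 2.93e-07) and Dusp10 (-0.33, 0.0479) also passed from 0 to 30 min. Rnd3, Prag1 and Spry2 did not. Rnd3 changed by -0.7, -0.51, 0.18, -0.44 and -0.23 in the first step of experiments 1 to 5. With the control signal as a term its first step passed (-0.27, limma adjusted p = 0.0107). Of the 16 other settings tried, Rnd3 passed in 4, Spry2 in 1 and Prag1 in 0. Prag1, a signalling scaffold, changed by -0.097 in the first step and by -0.66 in the second (limma adjusted p = 1.49e-07). Dusp10, a phosphatase of stress kinases, changed by -0.33 (adjusted p = 0.0758) and then by -0.77 (6.82e-06). With the control signal as a term its first step was -0.3 (limma adjusted p = 0.0173).

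Btg1, an antiproliferative gene like Btg2, had means of 11.27, 11.10, 10.77, 9.66 and 8.89 at 0, 30, 60, 90 and 120 min, and the AP-1 gene Fosl1 11.29, 11.21, 10.85, 10.17 and 9.59. Their first steps did not pass (limma adjusted p = 0.101 and 0.553). Btg1 was lower in 5 of 5 pairs, and with the control signal as a term it passed (-0.17, limma adjusted p = 0.0369). Of the 16 other settings tried, Btg1 passed in 4 and Fosl1 in 0. Ier5 and Ier3 changed by -1.15 and -0.58 in the first step and by -1.35 and -1.06 in the second.

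**Figure D4:**
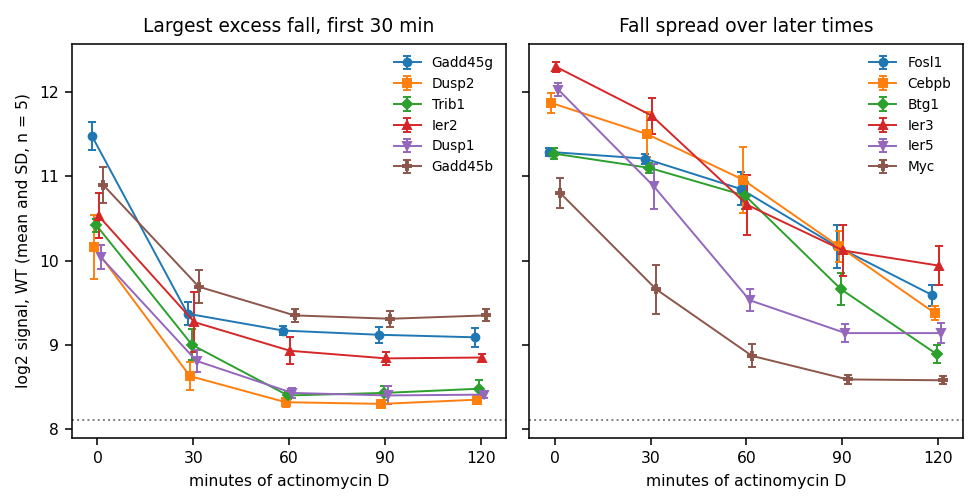
WT log2 signal (mean and SD of 5 arrays, vertical axis) at 0, 30, 60, 90 and 120 min of actinomycin D. The left panel has the 6 genes with the largest excess fall in the first 30 min. The right panel has 6 genes that fell over the later times, whether or not they also fell in the first 30 min. Myc and Ier5, for example, changed by -1.13 and -1.15 in the first 30 min. The dotted line marks the floor of 8.11. Gadd45g is at 9.37 by 30 min, while Btg1 is at 11.10 at 30 min and 8.89 at 120 min.

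Set beside the line without TTP, most of the fast falls also passed there. In KO 282 probe sets fell from 0 to 30 min (0.626%), 134 without experiment 1, 174 without experiment 2 and 103 without experiment 4. Of the 34 genes that fell at least 1.5-fold in WT, 25 also fell past the threshold in KO, with a median change of -0.65 in KO and -0.88 in WT, where the genes were chosen for their fall. The test of the difference itself, KO change minus WT change, called 4 probe sets with the lower change in WT (0.00888%) and 1 with the lower change in KO (0.00222%). At an unadjusted p under 0.05 the change was lower in WT for 711 probe sets and lower in KO for 1724. The count of 4 was 1 without experiment 1 and 0 without experiment 4 (694 at an unadjusted p under 0.05).

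Gadd45g was one of the 4, with a change of -1.15 in KO and -2.12 in WT (difference 0.96 ± 0.092, SE; limma adjusted p = 0.00172). Its 5 KO arrays at 30 min lay between 8.79 and 9.16 and its 4 KO arrays at 0 min between 9.98 and 10.26. KO thus began lower, at a mean of 10.12 at 0 min where WT had 11.48. Nuak2, a stress-activated kinase, changed by -0.24 in KO and -0.88 in WT (difference 0.64, adjusted p = 0.00506), and Arc, an immediate-early gene best known from neurons, by -0.17 in KO and -0.80 in WT (0.62, 0.0176). At 0 min the KO means of Nuak2 (8.56) and Arc (8.45) were close to the floor, where WT had 9.79 and 9.97. After background subtraction 0 probe sets passed this limma test (662 with the lower change in WT and 1869 with the lower change in KO had an unadjusted p under 0.05). The fourth was the Itga5 probe set described above, with -0.38 in KO and -1.04 in WT (0.66, 0.00506). KO began lower here too, at a mean of 9.16 at 0 min where WT had 9.95. At 30 min the means were 8.76 in KO and 8.92 in WT.

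For the other leading genes the difference did not pass, which does not show that the lines act alike. Dusp2 changed by -1.55 in KO and -1.53 in WT (difference -0.012 ± 0.15, SE; limma adjusted p = 0.996). Ier3 changed by -0.13 in KO and -0.58 in WT (0.45 ± 0.082, SE; limma adjusted p = 0.256), with KO arrays between 12.18 and 12.28 at 30 min and between 12.29 and 12.40 at 0 min. Zfp36 changed by -0.79 in KO and -1.12 in WT (0.33, adjusted p = 0.895), with KO arrays between 8.47 and 8.86 at 30 min and between 9.28 and 9.60 at 0 min. Whether its probe set lies within the deleted stretch is unknown here, so this level does not check the labels.

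**Figure D5:**
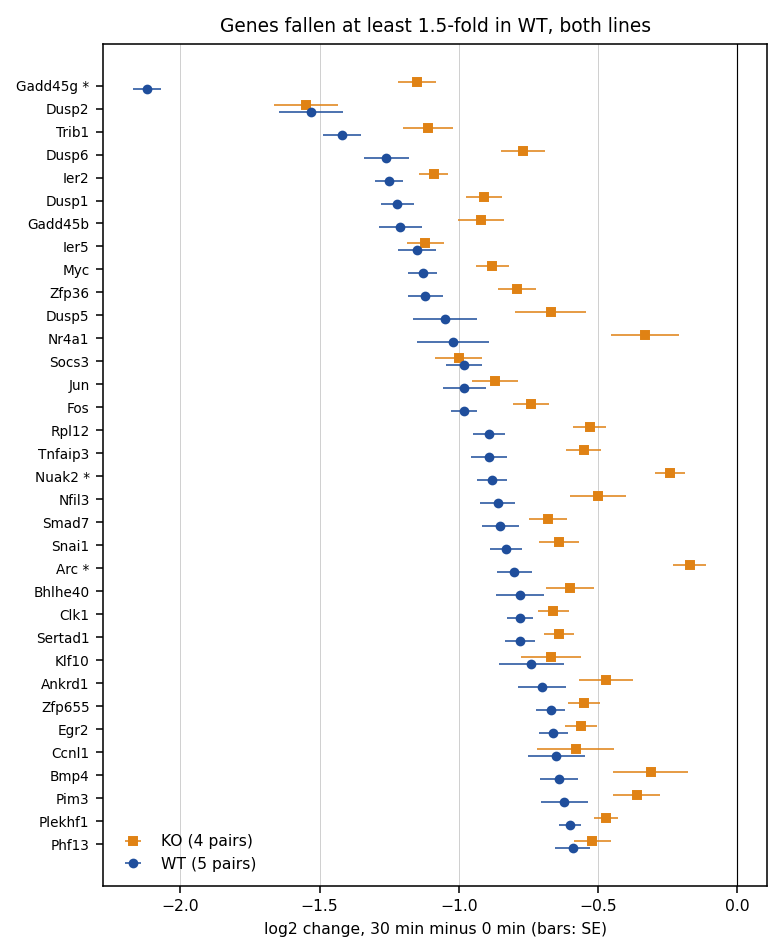
Log2 change from 0 to 30 min (horizontal axis, bars are SE) for the 34 genes that fell at least 1.5-fold in WT, with KO as squares and WT as circles. Stars mark Gadd45g, Nuak2 and Arc, whose line difference passed, and Dusp2, Ier5 and Socs3 lie at nearly the same change in both lines.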

How the data were processed

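Per the labels' protocols, total RNA (1 µg) was amplified and labelled, and cRNA (15 µg) was put on Affymetrix Mouse Genome 2.0 arrays for 16 h. The deposited values are log2 signals per probe set and array. The log base was inferred from their range, and the authors' summarisation, background correction and normalisation are not given in the sources used here. The number of arrays limits the precision. Of 45101 probe sets, 64 controls were left out. Of the rest, 34945 carry 1 gene symbol, 932 several and 9160 none (platform annotation), giving 18193 genes, each read at its probe set with the highest mean over the 10 arrays.

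Models were fitted in limma 3.58.1 (R 4.3.3) using robust empirical Bayes moderation along a trend in signal. They were also run on simulated data with independent noise. These data held neither the control signal difference nor the irregular array of experiment 2, so they do not check the fits for either. The main fit took the 10 arrays with experiment as a block, two-sided, with Benjamini-Hochberg adjustment over all 45037 probe sets and a threshold of 0.05. Later steps used the 25 WT arrays, and the line difference the 19 arrays at 0 and 30 min with line by experiment as a block. The pairing comes from the series text (5 experiments on 5 days). Same-numbered arrays correlated at 0.04, 0.15, 0.23, 0.78 and 0.68 in their deviations from the group means over 10826 probe sets. For the 0 min arrays of experiments 1, 2 and 3 the best match at 30 min was experiment 3, 3 and 1. These pairs rest on the series text alone. Background subtraction took off each array's 5th percentile on the linear scale, with a floor of 16.

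Members, gene lists and tests were chosen with earlier results of these data known, and the control signal as a term was added after seeing the arrays. Named were Zfp36, its relatives and Ier3, the 20 largest falls and up to 6 rises, up to 4 called and 2 uncalled members of each list, 6 genes at each end of the step comparison, up to 6 at each end of the line difference, and promoters of the first 3 genes with an entry. Others were chosen after their values were seen.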

Additional observations from a re-analysis of the deposited data

Results flagged for a closer look

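Of 64 groups tested for a single array far from the rest, 3 stood out, where chance gives about 1 in 20. All 3 were high values of experiment 2. Ier5 read 11.35 at 30 min in experiment 2, where the arrays of experiments 1 to 5 were 10.74, 11.35, 10.80, 10.73 and 10.76. Myc read 10.17 at 30 min in experiment 2, among 9.49, 10.17, 9.63, 9.57 and 9.47. Myc was also high in experiment 2 at 0 min, with 11.11 among 10.71, 11.11, 10.69, 10.79 and 10.68. The change in that pair was -0.93 for Myc, with a mean of -1.13 over all pairs, and -0.79 for Ier5, with a mean of -1.15.

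The first 30 min change differed between the lines by limma's test for 5 probe sets (KO change minus WT change). The differences were 0.96 for Gadd45g, 0.66 for a second probe set of Itga5, 0.64 for Nuak2 and 0.62 for Arc. The fifth was -0.45 for a probe set without a gene symbol, which changed by -0.70 in KO and -0.25 in WT (limma adjusted p = 0.0121). With the control signal as a term the adjusted p was 0.000105 for Gadd45g, 5.52e-05 for Itga5, 5.52e-05 for Nuak2, 0.00245 for Arc and 0.00245 for the probe set without a symbol. The part that unequal levels at 0 min play in these differences was not tested.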

How the results depend on the processing

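Each of the 520 called probe sets of the first 30 min had 1 direction in 5 of 5 pairs. Fits that only left out experiments or the block could therefore not turn a sign. When probe sets of low signal were left out, 475 of the 520 were tested. None of the 520 changed sign under any alternative run that tested them, nor did the 76 called among 167 named genes. Of the 91 that did not pass, 40 changed sign in some setting, 0 of them past the threshold there, and the median of all changes turned from 0.0062 to -0.055 with ribosomal scaling. The control signal as a term, alone and combined with leaving out experiment 2, was chosen after seeing the data. Against 491 fallen and 29 risen probe sets, fits without the replicate block gave 172 and 1 (168 of the 491 shared), background subtraction 211 and 2, experiments 1 to 3 alone 92 and 0, and experiments 4 and 5 alone 2008 and 638, the last resting on spread pooled over probe sets with 2 pairs. The control signal as a term gave 917 and 90, the same without experiment 2 965 and 209, scaling to ribosomal protein probe sets 1866 and 15, and at least 1.5-fold 58 and 0. Without trend and robust fit 19 rose. Leaving out 1 experiment gave 182 to 501 and 2 to 34. The 101 fallen list members became 38 without the block, 50 after background subtraction, 28 in experiments 1 to 3, 159 in experiments 4 and 5, 183 with ribosomal scaling, and 46 to 103 with 1 experiment left out (46 without experiment 4). Of the named genes 74 passed, against 37 without the block, 40 after background subtraction, 27 in experiments 1 to 3, and 41 to 76 with 1 experiment left out (41 without experiment 4). More in the first step were 42, against 14 after background subtraction and 19 to 58 with 1 left out. Lower from 30 to 60 min were 473, against 211 without the block and 255 to 665 (302 without experiment 2, 255 without 5). Lower from 30 to 120 min were 3452, against 2278 without the block and 2680 to 3970. Higher were 1690, against 475 without the block, 1094 after background subtraction, 493 with ribosomal scaling, and 744 to 2435 (971 without experiment 2, 744 without 4, 799 without 5). In KO 282 fell, against 183 without the block, 600 with the control signal, 767 in all 48 arrays, and 103 to 259. The line difference called 4 lower in WT, against 2 without the block, 0 after background subtraction, 11 with the control signal, 11 with ribosomal scaling, 19 in all 48 arrays, and 0 to 4. It called 1 lower in KO, against 0 after background subtraction, 5 in all 48 arrays, and 0 to 1. Causes of these shifts were not tested. Signals near the floor understate falls.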

Other observations

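Host transcripts of small nucleolar RNAs, noncoding genes whose introns carry guides for the modification of ribosomal RNA, were among the transcripts that fell in the first step. Of 12 long noncoding RNAs measured, 3 fell (25%), and all 3 are such hosts. Snhg12 read 8.81, 9.02, 8.86, 8.78 and 8.82 at 30 min, against 9.18, 9.38, 9.21, 9.32 and 9.27 at 0 min, without overlap (-0.42, limma adjusted p = 0.000387). Its means were 9.27, 8.86, 8.80, 8.86 and 8.93 at 0, 30, 60, 90 and 120 min, and its change from 30 to 120 min was 0.076 (adjusted p = 0.176). Snhg5 changed by -0.32 (0.00186) in the first 30 min and by -0.18 from 30 to 120 min, and Snhg3 by -0.21 (0.0192) and 0.007. The call of Snhg3 ended in each of the 5 fits that leave out 1 experiment (adjusted p = 0.0515 to 0.172), while those of Snhg12 and Snhg5 held in all 5. Picked after their values were seen, Snhg16 (-0.34), Dancr (-0.33) and Zfas1 (-0.30) fell in the first step and changed by 0.00, 0.15 and -0.20 from 30 to 120 min. Gas5, another host, did not pass (-0.057, adjusted p = 0.703).

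Of the 138 fallen genes outside every list, some are named here by size, after their values were seen. They include the cell cycle regulator Sertad1 (-0.78, limma adjusted p = 4.33e-05), the serum-responsive gene Ankrd1 (-0.70, 0.00837) and the cyclin Ccnl1 (-0.65, 0.0326). Pcf11, a factor of 3′ end processing, changed by -0.58 (7.15e-05), and Irs1, the insulin receptor substrate, by -0.57 (7.01e-05). Cited2, an inhibitor of hypoxia signalling, changed by -0.55 (0.000175) in the first step and by -2.17 from 30 to 120 min.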
